A study of Mus musculus with 9 samples.

Results

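The mouse gene symbols Zfp900 to Zfp999 name zinc finger genes of the mouse, many of them found in rodents only. The genes were taken as every autosomal row of the deposited clustering matrix whose symbol is Zfp9 followed by 2 further digits. This gave 64 of the 28051 genes in the matrix, under 63 symbols, since Zfp935 is listed under 2 overlapping identifiers on chromosome 13. Their levels were examined in growing oocytes of XX, XO and XY female mice, in 3 pools of each genotype.

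All mice were 18 days post partum (dpp) and are labelled C57BL/6. The XY females and the XX females came from litters of B6.Y TIR males, which carry the TIR Y chromosome on a B6 background, and B6 females. The XO females came from a different cross, with males carrying Paf, an X-linked mutation of C3H/HeSnJ origin backcrossed to B6, so XO and what remains of that background cannot be told apart. Each pool held 30 oocytes, 10 of 50 to 55 μm and 20 of 55 to 60 μm, so a value is a mean over oocytes of several sizes. The 9 pools are called XX1 to XX3, XO1 to XO3 and XY1 to XY3 after their replicate numbers. Fewer oocytes of a stage and less RNA per oocyte cannot be told apart in such pools.

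Most genes with these symbols encode KRAB zinc finger proteins. In such a protein a tandem array of C2H2 fingers reads DNA, and the KRAB domain recruits TRIM28 (KAP1), which brings the H3K9 methyltransferase SETDB1, heterochromatin protein 1 and the NuRD complex. Many of the proteins bind retrotransposons and restrain them in early embryos and in the germ line. The genes arise by tandem duplication and therefore lie in clusters of close copies, of which those on mouse chromosomes 2 and 4 are large and differ between strains. Growing oocytes store transcripts and set up the DNA methylation of the egg, and the KRAB zinc finger protein ZFP57 keeps imprints after fertilisation.

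Of the 64 genes, 63 are annotated as protein coding in Gencode vM21 (GRCm38) and 1, Zfp939, as a transcribed pseudogene. In the longest annotated coding sequence of each, translated here, 60 held at least 1 C2H2 finger pattern and 57 a pattern of the KRAB A box. The number of fingers ranged from 0 to 21 with a median of 11.0. Zfp974 had 21 fingers, Zfp945 and Zfp976 had 18, and the abundant Zfp978 and Zfp979 had only 3 each. By the deposited coordinates 46 of the genes fell into 6 clusters in which neighbours start within 1 Mb of each other. The chromosome 4 cluster held 16 genes over 2.34 Mb (chr4:145510759-147848366), the chromosome 2 cluster 10 genes over 2.71 Mb (chr2:175372436-178078476), and the chromosome 17 cluster 10 genes over 1.30 Mb (chr17:21567046-22867134). Smaller clusters lay on chromosome 7 with 4 genes, chromosome 8 with 3 and chromosome 13 with 3, and 18 genes stood alone. Coordinates are GRCm38.

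Copies within a cluster resembled each other upstream of the gene as well as within it. RefSeq (GRCm38.p6) gave a start site for 53 of the 63 symbols, and the 250 bases upstream of it were compared. Within the chromosome 2 cluster, 36 pairs of upstream sequences were identical at a median of 97.5% of aligned bases, with a range of 80.1% to 100%. The 100 bases before the start site are shown for 4 of its genes. The genes of this cluster moved together across the pools, and a link of these bases to that was not tested. Capitals mark CCAAT, the letters bound by the factor NF-Y at many promoters.
Zfp967, chr2:176520904-176521003, plus strand: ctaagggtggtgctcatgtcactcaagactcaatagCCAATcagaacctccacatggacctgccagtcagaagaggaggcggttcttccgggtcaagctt
Zfp970, chr2:177464642-177464741, plus strand: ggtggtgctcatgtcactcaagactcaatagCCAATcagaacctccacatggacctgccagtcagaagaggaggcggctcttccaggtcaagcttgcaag
Zfp971, chr2:178023184-178023283, plus strand: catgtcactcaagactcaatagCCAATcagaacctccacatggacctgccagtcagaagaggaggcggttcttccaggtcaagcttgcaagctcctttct
Zfp972, chr2:177925651-177925750, minus strand: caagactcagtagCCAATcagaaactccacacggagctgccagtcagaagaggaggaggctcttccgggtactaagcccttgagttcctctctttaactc
A similar block of letters stood at a different distance from the annotated start in each gene. CCAAT, searched on both strands of the 250 bases, was held by 9 of 9 chromosome 2 genes, by 40 of all 53 genes (75.5%) and by 33.7% of 31396 autosomal promoters.

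The chromosome 4 genes carried another shared block. Over 45 pairs the median identity upstream was 83.3%, with a range of 44.6% to 95.8%. Capitals mark ATTGGGCGG, in which the reverse complement of CCAAT overlaps the GC box letters GGGCGG. The sequences shown belong to genes whose levels are described in detail, and to Zfp933, at the edge of the cluster, which lacks the block. The RefSeq start of Zfp981 lies 12893 bases inside the deposited gene, so the bases shown for it do not precede the deposited 5′ end. Each other start site in this and the preceding set was within 52 bases of that end.
Zfp979, chr4:147642509-147642608, minus strand: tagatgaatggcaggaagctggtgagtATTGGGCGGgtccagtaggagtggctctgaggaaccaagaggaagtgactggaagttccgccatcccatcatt
Zfp980, chr4:145670597-145670696, plus strand: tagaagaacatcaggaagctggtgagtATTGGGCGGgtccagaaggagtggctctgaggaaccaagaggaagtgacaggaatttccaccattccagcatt
Zfp981, chr4:146514820-146514919, plus strand: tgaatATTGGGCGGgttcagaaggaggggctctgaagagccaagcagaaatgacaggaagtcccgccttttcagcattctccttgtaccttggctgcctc
Zfp985, chr4:147553177-147553276, plus strand: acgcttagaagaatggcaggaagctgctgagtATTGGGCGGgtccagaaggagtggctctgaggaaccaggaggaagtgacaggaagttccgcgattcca
Zfp933, chr4:147848419-147848518, minus strand: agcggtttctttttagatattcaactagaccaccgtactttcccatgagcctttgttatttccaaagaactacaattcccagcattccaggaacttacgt
ATTGGGCGG was found on either strand of 7 of 10 chromosome 4 genes, of 9 of the 53 genes (16.98%) and of 0.226% of autosomal promoters. TATAAA was in 0 of the 53 windows and in 12.4% of autosomal promoters. These are matches of letters in a fixed window, and factor binding was not measured.

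On chromosome 17 the genes Zfp942 and Zfp943 point away from each other, and only 94 bases lie between their start sites. These bases are printed on the plus strand, with CACGTG, the E-box letters, in capitals, as 1 sequence that precedes both genes.
Between Zfp942 and Zfp943, chr17:21962465-21962558: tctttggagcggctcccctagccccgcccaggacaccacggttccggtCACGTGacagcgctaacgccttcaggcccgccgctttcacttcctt
CACGTG was in 6 of 10 chromosome 17 windows, of which those of Zfp942 and Zfp943 overlap, and in 6.02% of autosomal promoters.

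The likeness of the copies in sequence bears on what a count means. The authors counted unique molecular identifiers (UMIs) on 5′ ends, so the start of the transcript decides the gene. In the chromosome 2 cluster a median of 94.1% of the 75-base words in the first 200 bases of a gene's transcripts also occurred in transcripts of another gene, with a range of 3.02% (Zfp972) to 100%. In the chromosome 4 cluster the median was 43.4%, and for Zfp978 and Zfp979 it was 100% for each, the other holders being Zfp600, Rex2 and each other. In the chromosome 17 cluster the median was 4.87%. Over all 64 genes, 36 shared more than 10% of these words and 22 shared none. Levels of single genes in the chromosome 2 cluster, and of Zfp978 and Zfp979, are therefore uncertain. The same holds on chromosome 4 for Zfp980 (82.1%), Zfp984 (68.25%) and Zfp989 (53.3%), among others. Sums over the genes with Zfp symbols avoid only the split among those genes. Some words are also held by genes outside the sums, such as Zfp600, Rex2 and Gm14327, so the sums keep part of this uncertainty.

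Levels are given as normalized CPM, which is UMIs scaled to a fixed total of gene UMIs and corrected by a factor from the ERCC spike-ins. They count 5′ ends and are not divided by length. Each pool had between 2130145 and 3157338 UMIs on genes, and 1 UMI equals between 0.302 and 0.565 normalized CPM. Spike-ins were between 0.204% and 0.862% of UMIs. All 12 oocyte markers were detected in every pool, at levels from 0.326 for Mos to 17150 normalized CPM for Zp2, a zona pellucida protein. Zp2 was at 4919 or more in every pool, while Figla, an oocyte transcription factor, had 0.518 in XO1 and at most 17.5 elsewhere. XO1 stood apart from the other XO pools in them, in both directions. Oosp1, an oocyte secreted protein, had 9137 in XO1 and 2494 and 2495 in XO2 and XO3. Zp1, of the zona as well, had 13.98 normalized CPM in XO1, 759 in XO2 and 2166 in XO3, and the summed level of 12 oocyte markers was 18254, 34563 and 42549. In XX the sum was between 26598 and 28364, and in XY between 19518 and 27186. Of 11 oocyte markers tested in the fit below, 4 were called lower in XX than in XO, where 16.7% of all genes tested were. These were Gdf9, Zp1, Nobox and Ooep, with log2 fold changes of -2.11, -3.81, -2.85 and -2.21. The same 4 were called lower in XY than in XO, where 8.24% of all genes tested were. None was called between XX and XY. Gdf9 had 339 in XO1, 869 in XO2 and 2432 in XO3, and between 234 and 350 in the XX and XY pools. These calls differ from the paper, which found Gdf9 unchanged among the 3 genotypes at this size by its RNA-Seq model and by qRT-PCR. Of 10 granulosa markers 7 were in the matrix, with sums between 50.4 and 94.8. Inha, a defining marker, was at 0 in 8 of 9 pools, while Kitl, Nr5a2, Cyp19a1, Cyp11a1 and Inhba had UMIs in every pool. Nr5a2 had between 21.9 and 51.6 normalized CPM and Cyp19a1 between 3.62 and 44.4. Kitl had 17.1, 14.01 and 19.2 in XX, 8.28, 5.69 and 9.60 in XO and 13.01, 10.7 and 10.9 in XY, and it was called higher in XX than in XO at 1.09. Of 9 markers of stroma, theca, blood and vessel 5 were in the matrix. Their sums were 33.1, 19.3 and 49.0 in XX, 16.1, 111 and 132 in XO and 24.6, 33.9 and 58.6 in XY, nearly all of it Pecam1. Col1a1 was at 0 in 8 of 9 pools. The part of these marker levels in the results was not tested, and key values are also given without XO1.

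All 64 genes had at least 1 UMI in some pool, 59 had a UMI in every pool and 47 had 10 or more in every pool. At a limit of 3 UMIs, XX pools detected 62, 57 and 61 genes, XO pools 60, 62 and 61, and XY pools 60, 61 and 60. These counts overlap between genotypes. Mean levels exceeded 100 normalized CPM for 10 genes, lay between 10 and 100 for 37 and were under 10 for 17. The median over the genes was 23.6 normalized CPM. Zfp995 with 2 UMIs and Zfp983 with 4 UMIs over all 9 pools were at the edge of detection. Zfp983 and Zfp995 had 0 UMIs in all XX pools, which allows up to 0.335 normalized CPM (3 UMIs over the genotype).

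Zfp978, at chr4:147361303-147391004, was the highest with ranks of 1 among these genes and 96 among all 28051. It encodes a short KRAB protein. Zfp979, at chr4:147611937-147642513, followed at rank 182 overall. Together they made 32.6%, 33.3% and 37.9% of the UMIs of these genes in XX pools, 30.0%, 58.0% and 60.0% in XO pools, and 42.6%, 46.4% and 57.0% in XY pools. The ratio of Zfp978 to Zfp979 was between 1.57, in XO1, and 1.99, in XO2, while their sum changed. Since 100% of the words in the first 200 bases of each are shared, the ratio may depend on how reads were assigned. It cannot show that the 2 genes kept a proportion. The other genes among the 15 with the highest means were Zfp951, Zfp957, Zfp980, Zfp982, Zfp932, Zfp960, Zfp930, Zfp971, Zfp952, Zfp973, Zfp958, Zfp939 and Zfp936.

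**Figure D1:**
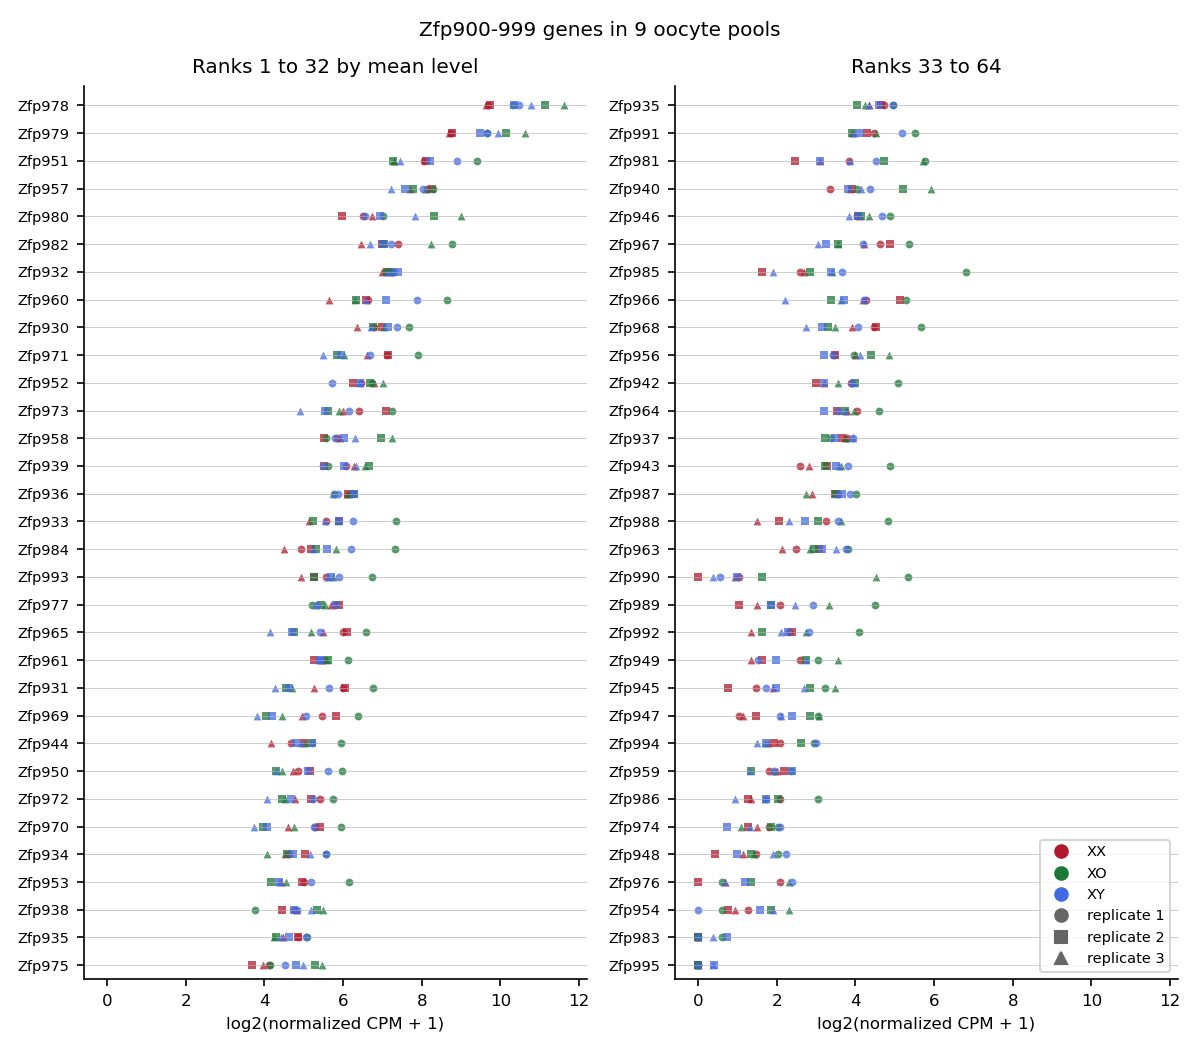
Level of each of the 64 genes in the 9 pools, as log2(normalized CPM + 1), ordered by mean level. Colour gives the genotype and marker shape the replicate number, and the 2 identifiers of Zfp935 are separate rows. Zfp978 and Zfp979 lie above all others, and the green circles of XO1 are at the right end for many genes.

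Summed over the 64 genes, XX pools had 3822, 3855 and 3192 normalized CPM, a mean of 3623 ± 373 (SD, n = 3). XO pools had 6942, 5772 and 7851, a mean of 6855 ± 1042 (SD, n = 3), and XY pools had 5194, 4342 and 4777, a mean of 4771 ± 426 (SD, n = 3). The 3 genotypes did not overlap in this sum, and XY lay between XX and XO. As a share of gene UMIs, which does not use the spike-ins, the sums were 0.430%, 0.450% and 0.398% in XX, 0.581%, 0.489% and 0.552% in XO, and 0.525%, 0.502% and 0.501% in XY. By that share the XX pools were still the lowest, while XO2 fell below all 3 XY pools. The overlapping identifiers of Zfp935 enter the sums as listed.

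The level of most of these genes varied within XO and within XY. XO1 was the highest of the 3 XO pools for 38 of the 55 tested genes (69.1%), against 37.5% of all genes tested. XY1 was the highest of the 3 XY pools for 38 of 55 as well, against 40.9% of all genes tested. Zfp951 on chromosome 5 is an example. It had 266, 277 and 157 normalized CPM in XX, 672, 153 and 156 in XO and 478, 297 and 173 in XY, so that replicate 1 of XO and of XY was high and the genotypes overlapped. Zfp960 on chromosome 17 had 98.7, 95.2 and 49.05 in XX, 401, 78.6 and 77.9 in XO and 233, 135 and 95.4 in XY, with the same pools high. Zfp978 and Zfp980 ran the other way in XO, where XO1 was the lowest.

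To see which genes differ between the genotypes, all 3 were compared in 1 edgeR fit over all 10993 genes with enough counts. Comparisons with XO also compare females from different crosses. Of the 64 genes 55 passed the filter on low counts and were tested. The 9 too low to test were Zfp948, Zfp954, Zfp959, Zfp974, Zfp976, Zfp983, Zfp986, Zfp990 and Zfp995. A gene is said to be called at an unadjusted p below 0.05, the threshold of the study, and p-values were adjusted over the whole fit by the method of Benjamini and Hochberg. The study's own model also held surrogate variables for batch effects as covariates, which this fit does not. In this edgeR fit none of the 55 genes passed 0.05 after adjustment in any comparison, and 17, 4 and 6 passed it unadjusted. The lowest adjusted p was 0.203 for XX with XO, 0.501 for XX with XY and 0.485 for XY with XO. Other fits did give calls after adjustment. DESeq2 gave 7 genes lower in XX than in XO, where 434 of all 10993 genes tested were, and none in the other comparisons. The edgeR fit without XO1 gave 9 lower in XX than in XO and 3 lower in XY than in XO. Over all 10993 genes that fit gave 2557 and 1324, which are larger shares than among the 55.

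Between XX and XO, 17 of the 55 genes were called lower in XX (30.9%), where 16.7% of all genes tested were lower. None was called higher, where 1.40% of all genes tested were. The median log2 fold change, XX minus XO, was -0.47 over the 55 genes and -0.46 over all genes tested, so with all pools the called share was above the background while the median was close to it. By sign, 41 genes were lower and 14 higher in XX. Without XX3, 11 were called lower (20.0%), where 12.4% of all genes tested were. Without XO1 the order turned round, with 13 of the 55 genes lower (23.6%) against 33.6% of all genes tested, and a median of -0.17 against -0.42. In that fit 6 were called higher (10.9%), against 2.84% of all genes tested. Of the 180 other numbered Zfp genes tested, 35 were called lower (19.4%) and 2 higher, with a median of -0.47. The spike-in scaling sets where 0 lies in this comparison. Scaled by TMM on the genes, the median over all genes tested was -0.03, and 9 of the 55 genes were lower (16.4%, against 6.02% of all genes tested) and 2 higher (3.64%, against 5.90%). With surrogate variables 8.53% of all genes tested were lower in XX and 7.33% higher, and of the 55 genes 23.6% and 3.64%. On the batch-regressed values 7.40% of all genes tested were lower and 36.1% higher, and of the 55 genes 30.9% and 16.4%. The paper reported many autosomal transcripts as lower in XO than in XX, which is opposite to the main direction of the fit used here.

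**Figure D2:**
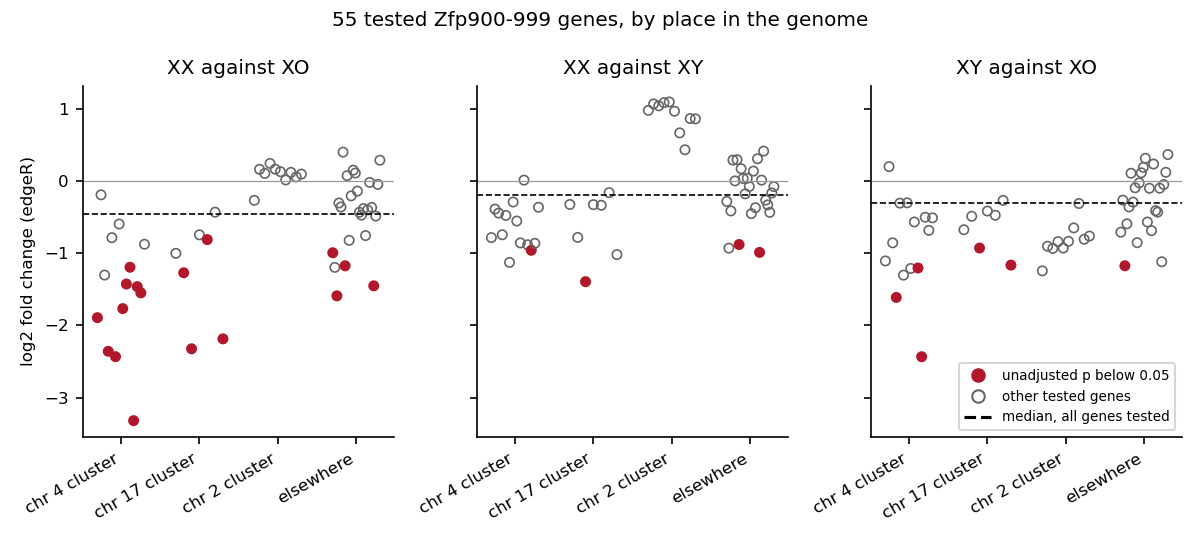
log2 fold changes of the 55 tested genes in the 3 comparisons, grouped by place in the genome and ordered by position within a group. Filled points were called at an unadjusted p below 0.05, and the dashed line is the median over all 10993 genes tested. The chromosome 4 points lie below 0 between XX and XO, and the chromosome 2 points lie above 0 between XX and XY.

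The calls gathered on chromosome 4. There 9 of 14 tested genes were lower in XX than in XO, where 16.7% of all genes tested were. Of the 14 values 14 were negative, and the median log2 fold change was -1.45. As many of these genes share transcript starts, the 14 values are not 14 separate measurements. The summed level of the 16 genes was 1693, 1648 and 1526 normalized CPM in XX, 3406, 3983 and 5826 in XO and 2768, 2479 and 3234 in XY. On this spike-in scale the XX pools were the lowest and close to each other, and no pool of 1 genotype overlapped another genotype. As a share of gene UMIs the XX pools were still the lowest, while XO and XY overlapped, with XY3 above XO1 and XO2. Without XO1, 5 of 14 genes were lower and the median was -0.83. In that fit 33.6% of all genes tested were lower, a share close to 5 of 14, and their median was -0.42.

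**Figure D3:**
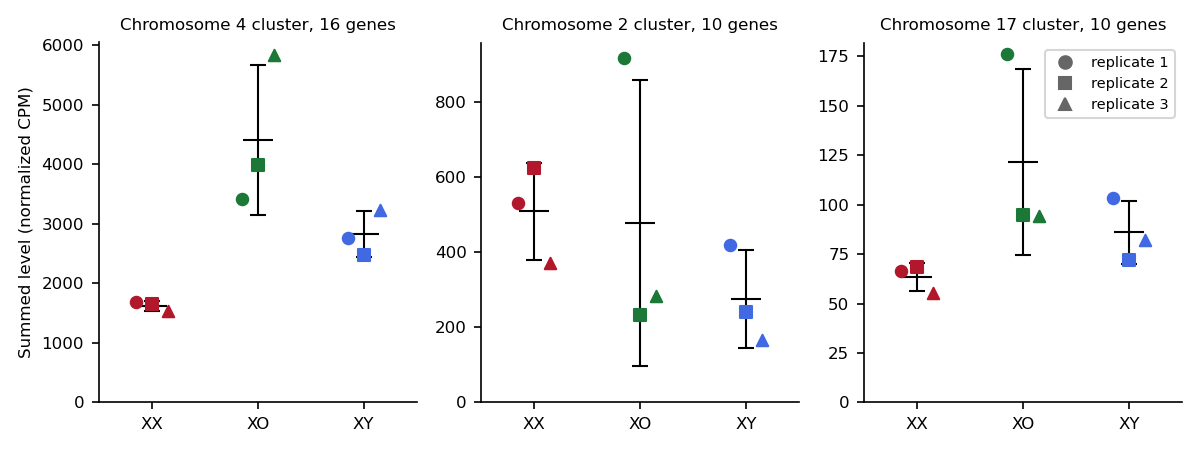
Summed normalized CPM of the 3 largest clusters in each pool. Points are pools, with marker shape for the replicate number, and bars are mean ± SD of 3 pools. In the chromosome 4 panel the XX pools lie between 1526 and 1693 and all XO pools at or above 3406, and in the chromosome 2 panel XO1 lies alone at 916.

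Zfp978 had 819, 850 and 793 normalized CPM in XX, 1269, 2231 and 3127 in XO and 1412, 1305 and 1749 in XY. All XX pools were below all pools of both other genotypes, while XO and XY overlapped. Its XX to XO log2 fold change was -1.43 ± 0.41 (SE), adjusted p = 0.203 in edgeR. Zfp979 had 425, 433 and 416 in XX, 811, 1119 and 1587 in XO and 800, 708 and 973 in XY. The order was that of Zfp978, and the XX to XO log2 fold change was -1.46 ± 0.35 (SE), adjusted p = 0.203. Mean levels in XO were 2.69 times those in XX for Zfp978 and 2.76 times for Zfp979. At the unadjusted threshold both remained called in each fit that left out 1 pool and under each other scaling, filter or model tried.

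Zfp980, near the start of the cluster at chr4:145670685-145704441, has 13 fingers. It shares 82.1% of the words in its first 200 bases, Zfp978 and Zfp979 being among the holders, so its level is uncertain too. It had 89.8, 61.3 and 104 normalized CPM in XX, 128, 316 and 506 in XO and 92.5, 121 and 226 in XY. XO1 was the lowest XO pool here, above every XX pool, and the XX to XO log2 fold change was -1.89 ± 0.54 (SE), adjusted p = 0.203. Zfp981 had 13.2, 4.55 and 7.62 in XX, 53.8, 25.3 and 51.4 in XO and 21.8, 7.49 and 13.6 in XY. All XO pools exceeded all other pools, at 5.15 times the XX mean and 3.04 times the XY mean. Its XX to XO log2 fold change was -2.36 ± 0.52 (SE), adjusted p = 0.203, and both of its calls against XO held in each fit that left out 1 pool and under each other scaling, filter or model tried.

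Several other chromosome 4 genes rested on few pools. Zfp985 had the largest value of all, -3.32 ± 1.07 (SE), adjusted p = 0.203, but 215 of the 244 XO UMIs came from XO1. Its levels were 4.99, 2.10 and 5.48 in XX, 111, 6.20 and 9.60 in XO and 11.6, 9.44 and 2.72 in XY. Without XO1 its XX to XO log2 fold change was -0.89 and the call was lost. Zfp990, too low to test, had 3, 0 and 3 UMIs in XX, 76, 4 and 39 in XO and 1, 3 and 1 in XY. It was present mainly in XO1 and XO3. Zfp984 had 29.6, 35.01 and 21.6 normalized CPM in XX, 158, 38.8 and 55.9 in XO and 72.97, 47.5 and 36.8 in XY, and Zfp982 167, 126 and 86.8 in XX, 438, 131 and 301 in XO and 147, 128 and 102 in XY. XO1 was the highest pool for both, and XO2 of Zfp982 overlapped XX. Both lost the call without XO1, as did Zfp988, at -1.77. Zfp989 had only 118 UMIs in all, and its log2 fold change was -2.43. The uncalled tested genes of the cluster were Zfp987, Zfp991, Zfp992, Zfp993 and Zfp933, with values from -1.30 to -0.19.

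**Figure D4:**
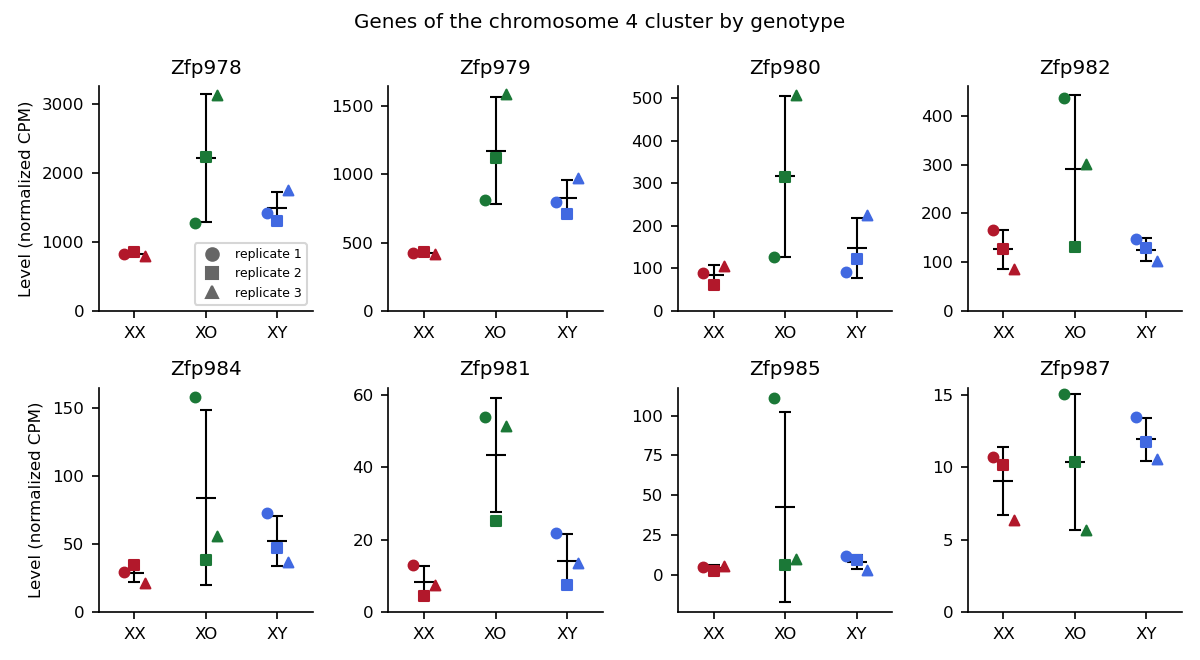
Levels of 8 chromosome 4 genes in normalized CPM by genotype, with a separate axis for each gene. Points are pools, marker shape is the replicate number, and bars are mean ± SD of 3 pools. Zfp978 and Zfp979 show tight XX pools below all others, Zfp985 rests on XO1 alone, and Zfp987 shows overlapping genotypes.

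On chromosome 17, 4 of 7 tested genes of the cluster were lower in XX than in XO, where 16.7% of all genes tested were. Of the 7 values 7 were negative, and the median was -1.003. The summed level of the 10 genes was 66.6, 68.3 and 55.4 normalized CPM in XX, 176, 94.6 and 94.3 in XO and 104, 72.3 and 82.1 in XY. On the spike-in scale XX pools were lowest and did not overlap the others, while XY1 lay above XO2 and XO3. As a share of gene UMIs XO3 fell below all XX pools. Without XO1, 2 of the 7 genes were lower and the median was -0.47, and without XX3, 2 were lower with a median of -0.90. Of all genes tested 33.6% were lower without XO1, a larger share than 2 of 7, and 12.4% without XX3. Their median was -0.42 in both fits.

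Zfp947 had the smallest unadjusted p of all 55 genes and is low in every pool, with 3, 5 and 4 UMIs in XX, 14, 12 and 13 in XO and 7, 13 and 11 in XY. As levels these are 1.07, 1.75 and 1.22 normalized CPM in XX, 7.25, 6.20 and 7.34 in XO and 3.25, 4.23 and 3.32 in XY. The 3 genotypes did not overlap. Its log2 fold change was -2.32 ± 0.40 (SE), adjusted p = 0.203 between XX and XO, and -1.40 ± 0.40 (SE), adjusted p = 0.501 between XX and XY. It was the only gene of the 55 called in all 3 comparisons. Zfp945, at the far end of the cluster with 18 fingers, had 5, 2 and 9 UMIs in XX, 16, 12 and 18 in XO and 5, 9 and 18 in XY, and a XX to XO log2 fold change of -2.19 ± 0.54 (SE), adjusted p = 0.203. Zfp943 had 4.99, 8.75 and 6.09 normalized CPM in XX, 28.5, 8.27 and 11.3 in XO and 13.01, 10.4 and 10.9 in XY, and was called at -1.27. Its divergent neighbour Zfp942 had 13.9, 7.003 and 8.23, 32.6, 14.99 and 10.7 and 13.9, 8.14 and 14.5 in the same order and was not called, with -1.003 ± 0.479 (SE), adjusted p = 0.293. Zfp944 was called at -0.81. Zfp943 and Zfp944 lost the call without XO1.

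Elsewhere in the genome 4 of 24 tested genes were called lower in XX than in XO, namely Zfp940, Zfp949, Zfp958 and Zfp975. That is no more than the 16.7% called over all genes tested. The 24 genes had a median of -0.38, beside -0.46 over all genes tested. Zfp940 on chromosome 7, at chr7:29833620-29853669, had 9.26, 14.01 and 13.4 normalized CPM in XX, 15.5, 35.7 and 59.8 in XO and 19.5, 13.02 and 16.6 in XY. XO2 and XO3 were far above the rest and XO1 was within the XY range. Its log2 fold change was -1.59 ± 0.46 (SE), adjusted p = 0.203. Zfp975, in the chromosome 7 cluster, had 16.4, 11.9 and 14.6 in XX, 16.6, 37.7 and 42.9 in XO and 21.8, 26.7 and 30.5 in XY, with XO1 close to XX1. Its neighbour Zfp977 had 54.5, 58.5 and 50.3, 35.7, 42.4 and 45.7 and 39.5, 55.02 and 38.6, the highest XX to XO log2 fold change of the 55, which was 0.40 ± 0.26 (SE), adjusted p = 0.407. Zfp958 on chromosome 8 had 56.6, 44.5 and 60.02 in XX, 46.1, 124 and 151 in XO and 54.8, 63.5 and 77.9 in XY, with XO1 among the XX values. Zfp949 on chromosome 9 had 101 UMIs in all and a log2 fold change of -1.45.

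Between XX and XY, 4 of the 55 genes were called lower in XX (7.27%), where 4.39% of all genes tested were lower, and none was called higher, where 1.41% were. The genes were Zfp947, Zfp979, Zfp975 and Zfp963. The median was -0.28 over the 55 genes and -0.19 over all genes tested. Zfp979 had a log2 fold change of -0.96 ± 0.35 (SE), adjusted p = 0.706, and lost the call without any 1 of XX1, XX2, XX3 and XY3. Zfp963 on chromosome 8 had 4.63, 7.35 and 3.35 normalized CPM in XX and 12.5, 7.81 and 10.3 in XY, without overlap, and a value of -0.99 ± 0.43 (SE), adjusted p = 0.835. Zfp975 had -0.88. The count was not firm, since it was 1 without XX1 or without XY3, 2 without XX2, without XX3 or without XO2, and 8 without XO1. Without XO1 8 genes were also called higher, and without XY1 2 were. Of all genes tested 8.60% were lower and 2.57% higher without XO1, so 14.5% of the 55 genes in each direction was above both.

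The chromosome 2 cluster moved as 1 block that did not follow genotype alone. Its summed level was 530, 625 and 370 normalized CPM in XX, 916, 233 and 283 in XO and 420, 240 and 165 in XY. XO1 was the highest pool and XY3 the lowest of all 9 for 10 of 10 genes. XO2 and XO3 lay below all XX pools, while XO1 lay above them.

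All 10 genes were higher in XX than in XY by sign, with a median log2 fold change of 0.97 and a range of 0.43 to 1.09, and none was called. Zfp967 had the highest value of the 55 genes, 1.09 ± 0.56 (SE), adjusted p = 0.955. It had 23.5, 28.4 and 17.7 normalized CPM in XX, 40.4, 10.9 and 10.7 in XO and 17.2, 8.46 and 7.24 in XY. XY1 came near XX3, and XX and XY did not overlap. Zfp971, the most abundant of the block, had 138, 139 and 97.2 in XX, 240, 56.9 and 63.8 in XO and 102, 60.5 and 43.8 in XY, and here XY1 overlapped XX3. Zfp973 had 82.99, 136 and 62.5 in XX, 151, 48.1 and 58.1 in XO and 70.2, 45.2 and 28.98 in XY. When XO1 was left out of the fit, which shares 1 estimate of the spread over all pools, 8 of the 10 genes were called higher in XX than in XY. The median was then 0.98, against 0.97 with all pools. Without XY1, 2 of the 10 were called and the median was 1.43.

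Between XX and XO the median of the 10 chromosome 2 genes was 0.11 with all pools, with 9 genes above 0 and none called. Without XO1 it was 1.02, with 6 genes called higher in XX, namely Zfp931, Zfp965, Zfp967, Zfp968, Zfp969 and Zfp971. Between XY and XO the median was -0.84 with all pools and 0.08 without XO1, and none was called in either fit. As the first 200 bases of these genes are largely shared, the 10 values are not 10 separate measurements.

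**Figure D5:**
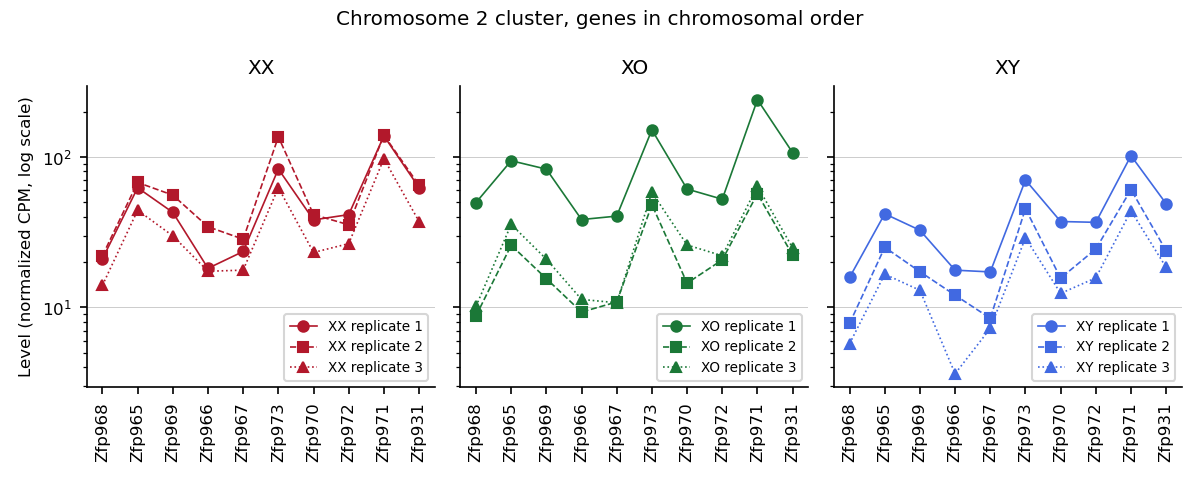
Levels of the 10 chromosome 2 genes in chromosomal order on a log scale, 1 panel for each genotype. Each line is a pool. The lines run nearly in parallel, XO1 lies above the other XO pools for all 10 genes, and XY1 lies above the other XY pools.

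Between XY and XO, 6 of the 55 genes were called lower in XY (10.9%), where 8.24% of all genes tested were lower, and none was called higher, where 1.69% were. The genes were Zfp940, Zfp945, Zfp947, Zfp981, Zfp982 and Zfp985. The median was -0.57 over the 55 genes, beside -0.30 over all genes tested, and 47 values were negative. It was -0.02 without XO1. Zfp981 had a log2 fold change of -1.61 ± 0.51 (SE), adjusted p = 0.485. Zfp985 had the lowest value, -2.43 ± 1.02 (SE), adjusted p = 0.496, which again rested on XO1. The highest value belonged to Zfp937 on chromosome 2, outside the cluster, at 0.36 ± 0.31 (SE), adjusted p = 0.655. XO and XY pools with the same replicate number deviated together, so the fit was repeated with the replicate number as a block. In this paired fit 12 of the 55 genes were called lower (21.8%, against 14.1% of all genes tested), of which 5 were called without the block, and Zfp985 was not called. Without XY2, 2 genes were called lower (3.64%, against 2.31% of all genes tested). Without XO1, 8 were lower (14.5%) and 3 higher (5.45%), where 27.0% and 4.64% of all genes tested were, so the share called lower was then below the background.

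Values of Zfp932 and Zfp961, whose proteins have a known function, are given with those of other abundant genes. Zfp932 shares 19.7% of the words in its first 200 bases, Gm15446 being among the holders. Zfp932, which with its close copy Gm15446 represses retrotransposons in embryonic stem cells, had 150, 139 and 126 normalized CPM in XX, 135, 145 and 148 in XO and 157, 167 and 141 in XY. The genotypes overlapped, and the XX to XO log2 fold change was -0.05 ± 0.25 (SE), adjusted p = 0.924. Zfp961, whose protein recognises a primer binding site of endogenous retroviruses, had 44.5, 37.5 and 42.3 in XX, 68.9, 48.1 and 47.4 in XO and 41.4, 41.3 and 40.8 in XY. On the spike-in scale all its XO pools lay above all pools of the other genotypes. Of all genes tested, 13.6% had all XX pools below all XO pools on that scale. As a share of gene UMIs, XO2 and XO3 of Zfp961 fell below every XX pool. Its XX to XO log2 fold change was -0.40 ± 0.25 (SE), adjusted p = 0.394 in edgeR, beside a median of -0.46 over all genes tested. Zfp957 on chromosome 14, among the 5 highest, had 280, 306 and 207 in XX, 313, 219 and 273 in XO and 261, 188 and 148 in XY, also with overlap. Zfp936, Zfp939, Zfp930 and Zfp952, all among the 15 highest, were not called in any comparison.

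The partners through which KRAB zinc finger proteins act were read from a list of 23 genes, of which 22 were in the matrix and 21 were tested. Trim28, the scaffold that the KRAB domain binds, had 8.55, 13.3 and 10.7 normalized CPM in XX, 6.21, 26.9 and 41.8 in XO and 14.9, 10.4 and 18.1 in XY. XO1 was the lowest of all 9 pools, and the XX to XO log2 fold change was -1.20 ± 0.57 (SE) with an adjusted p of 0.293. Setdb1 had 92.6, 77.0 and 111 in XX, 49.2, 101 and 107 in XO and 46.5, 88.9 and 99.0 in XY, with a log2 fold change of 0.13 ± 0.39 (SE). Between XX and XO, 2 of the 21 were called lower in XX, a smaller share than the 16.7% of all genes tested. These were Sumo2, which encodes a SUMO protein, at -0.64 and Dnmt3a, a de novo DNA methyltransferase, at -1.09. Sumo2 was also called lower in XY than in XO at -0.61, and none was called between XX and XY.

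Of 11 other KRAB zinc finger genes 10 were tested. Zfp600, a chromosome 4 gene that shares its transcript start with Zfp978 and Zfp979, had 424, 347 and 416 normalized CPM in XX, 529, 1061 and 1529 in XO and 581, 579 and 966 in XY. It was called lower in XX than in XO at -1.39, and its pools were ordered as those of Zfp978 within XO. Zfp809, which silences murine leukaemia virus-like elements, was called lower in XX than in XO at -1.35. Zkscan17 was called lower in XX than in XY at -1.30. Zfp57, needed to keep imprints, had 148, 102 and 163 in XX, 57.5, 236 and 312 in XO and 69.3, 120 and 199 in XY and was not called.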

How the data were processed

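Smart-seq3 libraries of the 9 oocyte pools were sequenced. The authors aligned reads by Hisat2 against GRCm38, using Gencode genes, and deposited the number of UMIs on 5′ exons per gene as counts. A second matrix deposited by the authors holds a signal that they scaled with the ERCC spike-ins and call normalized CPM, and the last one holds log2 values from which the authors removed batch effects. The second was checked to equal CPM on gene UMIs divided by the TMM factor of the 79 spike-ins, with a largest difference of 4.91e-11. The log2 matrix was used only in an alternative fit and to find gene symbols.

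Counts were fitted in edgeR 4.0.16 with the quasi-likelihood test, filterByExpr by genotype and the spike-in factors, with 1 mean per genotype over all 9 pools. Genes with an unadjusted p below 0.05 were called, two-sided, and p-values were adjusted by Benjamini and Hochberg over 10993 genes. The labels call the pools biological triplicates. Deviations of same-numbered XO and XY pools from their group means correlated at 0.818, 0.272 and 0.766, so these were also fitted with the replicate number as a block. The labels do not say what the number marks. For XX against XO the correlations were 0.450, -0.427 and 0.665, and for XX against XY 0.416, -0.0581 and 0.711, so those are not paired.

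Genes with values in the text are the called ones, the 15 highest by mean, the extremes of each comparison, Zfp932 and Zfp961, and from the lists Trim28, Setdb1 and the called ones. The clusters, sequences and Zfp57, Zfp942, Zfp971, Zfp973 and Zfp990 were described in addition. Genes and lists were chosen with earlier results of these data known. Shared 75-base words and coding sequences came from Gencode vM21 transcripts, upstream sequences from RefSeq (GRCm38.p6), matched by symbol and closest start site. Of these start sites 48 of 53 lay within 200 bases of the deposited gene end. Alternatives were TMM on genes, no filter, DESeq2 1.42.0, the block, surrogate variables from sva 3.50.0, limma 3.58.1 on the log2 matrix, and leaving out each pool. UMI limits cover counting error only.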

Additional observations from a re-analysis of the deposited data

How the results depend on the processing

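In the edgeR fit of the report an adjusted p below 0.05 left 0 of the 17, 4 and 6 genes called lower. Other fits kept adjusted calls, given in the order XX with XO, XX with XY, XY with XO. These were 7, 0 and 0 lower with DESeq2, 10, 0 and 3 lower without the filter, 1, 0 and 0 lower with the replicate block, 5, 4 and 10 lower and 0, 9 and 0 higher with surrogate variables, 15, 6 and 13 lower and 7, 8 and 4 higher with limma on batch-regressed values, and 9, 0 and 3 lower without XO1. Over all 10993 genes DESeq2 kept 434, 63 and 46 lower, the block 3, 11 and 0, and the fit without XO1 2557, 40 and 1324. Without the filter 1575, 80 and 729 of 28051 were lower. Surrogate variables kept 166, 396 and 348 lower and 130, 329 and 270 higher, and limma 487, 380 and 333 lower and 3054, 341 and 3054 higher. Scaled by TMM on the genes, 2 were higher and 9 lower between XX and XO with a median of -0.077, and 1 was higher and 1 lower between XY and XO. Of all genes tested 5.90% were higher and 6.02% lower between XX and XO, and 5.39% and 3.68% between XY and XO. With surrogate variables 2 were higher between XX and XO, 11 higher and 9 lower between XX and XY, and 1 higher and 20 lower between XY and XO. As shares of the 55 these were 3.64%, 20.0%, 16.4%, 1.82% and 36.4%, beside 7.33%, 9.41%, 10.6%, 10.1% and 11.5% of all genes tested. With limma on the batch-regressed values 9 were higher and 17 lower between XX and XO with a median of -0.066. There were 12 higher and 9 lower between XX and XY, and 6 higher and 16 lower between XY and XO. In this order the shares were 16.4%, 30.9%, 21.8%, 16.4%, 10.9% and 29.1%, beside 36.1%, 7.40%, 10.2%, 12.2%, 37.5% and 5.53% of all genes tested. The sign of Zfp958 between XX and XO turned to 0.16. Without the filter on low counts 7 of 64 were higher between XX and XY (10.9%, beside 0.813% of all genes) and 12 lower between XY and XO (18.8%, beside 8.70%). With the replicate block 8 were higher and 8 lower between XX and XY, where pairing of the pools is not established, and 12 lower between XY and XO. These were 14.5%, 14.5% and 21.8%, beside 2.35%, 6.81% and 14.1% of all genes tested. The block moved no other of the counts over the 55 genes by over 1.5 times.

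Leaving out 1 pool gave 0 to 6 higher and 11 to 20 lower between XX and XO, 0 to 8 higher and 1 to 8 lower between XX and XY, and 0 to 3 higher and 2 to 9 lower between XY and XO. The median between XY and XO ranged from -0.71 without XY1 to -0.016 without XO1. Of 27 called values of single genes, 11 remained called whichever pool was left out, none changed sign, and 9 remained called under each of the 6 other settings that keep the unadjusted threshold. Those called in both respects were Zfp945, Zfp947, Zfp978, Zfp979, Zfp980 and Zfp981 between XX and XO, Zfp947 between XX and XY, and Zfp981 between XY and XO. Since Zfp978, Zfp979 and Zfp980 share most of their transcript starts, their calls are not separate measurements.

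The mean sum in CPM on gene UMIs was 4260 in XX and 5406 in XO, and with TMM on genes 4159 and 5783, so the XO excess was smaller without the spike-ins. A mean of 62.3 XO and 63.0 XY genes had at least 1 UMI, and means of 49.7 genes (XX), 55.0 (XO) and 52.3 (XY) had at least 10. Zfp947 with 82 UMIs in all and Zfp945 with 94 are limited by counting error, and genes with shared transcript starts by how reads were assigned.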

Other observations

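The intervals of the clusters hold further genes, most of them with Gm symbols of predicted genes, which were examined after the values above were seen and carry no test as a group. In the chromosome 4 interval 22 of 51 other genes were tested. Between XX and XO 20 of them had negative log2 fold changes and 13 were called lower, where 16.7% of all genes tested were. The median was -1.14, beside -1.45 for the 14 tested genes with Zfp symbols described above there. Their summed level was 4344, 4025 and 4227 normalized CPM in XX, 7370, 11111 and 15274 in XO and 6586, 5975 and 8897 in XY. The XX pools lay below all others, while XO and XY overlapped.

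In the chromosome 2 interval 29 of 49 other genes were tested. Between XX and XO 22 had negative values and 3 were called lower, a smaller share than the 16.7% of all genes tested. The median was -0.17, where 9 of the 10 genes with Zfp symbols were above 0. Between XX and XY 23 had positive values, with 1 called higher and 1 called lower, and a median of 0.51. Between XY and XO 29 of 29 were negative with a median of -0.63 and none was called. The summed level was 1764, 2052 and 1172 normalized CPM in XX, 3361, 1189 and 1483 in XO and 1755, 1171 and 1053 in XY. XO1 was again the highest of the 9 pools. Of the 29 tested genes, 15 held 75-base words from the first 200 bases of a Zfp gene of the cluster, as did 8 of the 22 on chromosome 4, so these are not separate measurements.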
